A study of Mus musculus with 8 samples.

Results

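Striatal RNA of 8 mice fell into libraries with a high and libraries with a low level of RNA from thalamic genes. The high side held 4 of the 8 libraries, those of mice WT-1063, DF-1018, DF-1037 and DF-1062, and the low side held the other 4, those of WT-1015, WT-1041, WT-1061 and DF-1059. The members were chosen by the levels of Tcf7l2 and Prkcd in these same libraries, so every difference between them is given as a description, with no test. The names WT and DF are those of the mice, and DF stands for the genotype 16p11.2+/-. The WT mice were wild type, and the 16p11.2+/- mice carried a heterozygous deletion of the mouse segment that corresponds to human 16p11.2, present in every cell type. All 8 mice were females of a C57BL/6 background at postnatal day 60, with no treatment named in the labels. The striatum was dissected and frozen, total RNA was extracted with TRIzol, and each mouse gave 1 library. The study set out to ask which genes, myelin genes among them, differ between WT and 16p11.2+/- striatum.

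The thalamus lies next to the caudal striatum, across the fibres of the internal capsule, and its relay neurons are glutamatergic cells that project to the cortex and, from the intralaminar nuclei, to the striatum. These neurons load glutamate into vesicles with the transporter encoded by Slc17a6 (VGLUT2), whereas the principal cells of the striatum, the medium spiny neurons, are GABAergic. Tcf7l2, an effector of Wnt signalling that binds DNA together with beta-catenin, is a transcription factor that sets the identity of postmitotic thalamic neurons, and Prkcd, a protein kinase C, marks many relay neurons of the adult thalamus.

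The total count per library lay between 15240680 and 16523429 on the high side and between 15125051 and 16387993 on the low side. The means were 15819272 and 15773338, and an exact two-sided permutation test over the 70 assignments of the 8 mice gave p = 0.83. Of the 4 high mice, 3 were 16p11.2+/- and 1 was WT, and of the 4 low mice, 1 was 16p11.2+/- and 3 were WT (Fisher's exact test, two-sided, p = 0.486). The labels name no batch or dissection order. Nothing in the labels says how far the pieces reached beyond the striatum.

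Several libraries stood apart in other regional genes. In WT-1063 the FPKM (the read count scaled to gene length and to the total of the library) of Ttr, the thyroid hormone carrier made by the choroid plexus, was 4273. It was 453 in WT-1015 and between 1.12 and 117 in the other 6 libraries. DF-1062 had a summed FPKM of 30.0 over 8 habenula genes and of 216 over 12 hypothalamic genes, and no other library exceeded 7.56 and 13.4. Oxt, the hypothalamic hormone oxytocin, had an FPKM of 108 in DF-1062 and of at most 1.60 in the others. DF-1037 was the only high library with abundant RNA of cortical neurons, as given below with the cortical genes. The part of these neighbouring tissues in the results that follow was not tested beyond the values given without those libraries.

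The tissue label was checked on genes of medium spiny neurons. All 23 genes of the list were detected in all 8 libraries, and Penk, which encodes enkephalin and was the most abundant of them, had an FPKM of at least 111 in each. Each library thus held RNA of its labelled tissue.

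Tcf7l2 (ENSMUSG00000024985) lies on chromosome 19 from 55741820 to 55933654 on the plus strand, and Prkcd (ENSMUSG00000021948) on chromosome 14 from 30595354 to 30626210 on the minus strand (GENCODE M21, GRCm38). The 250 bases before the RefSeq start of each gene are shown because these are the promoters of the genes that defined the division. They are written 5′ to 3′ on the strand of the gene from RefSeq (GRCm38.p6), with every GC box (GGGCGG, or CCGCCC when it lies on the other strand) in capitals and adjoining boxes run together. The Tcf7l2 window is chr19:55741560-55741809 on the plus strand, and the Prkcd window is chr14:30626209-30626458 on the minus strand.
Tcf7l2: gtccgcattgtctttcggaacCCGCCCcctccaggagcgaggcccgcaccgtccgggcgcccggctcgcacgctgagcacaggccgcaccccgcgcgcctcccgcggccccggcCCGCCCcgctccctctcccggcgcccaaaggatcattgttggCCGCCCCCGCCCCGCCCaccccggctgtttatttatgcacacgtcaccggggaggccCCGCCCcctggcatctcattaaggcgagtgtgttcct
Prkcd: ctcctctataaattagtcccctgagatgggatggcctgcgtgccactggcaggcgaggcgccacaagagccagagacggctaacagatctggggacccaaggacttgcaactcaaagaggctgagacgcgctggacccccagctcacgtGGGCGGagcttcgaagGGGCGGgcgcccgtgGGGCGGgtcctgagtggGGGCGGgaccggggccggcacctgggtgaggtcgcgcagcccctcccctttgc
The Tcf7l2 window held 6 GC boxes with 72.8% G or C, and the Prkcd window held 4 with 67.6%. Of the 16 thalamic genes whose values did not overlap between the sides, all had such a window, and 11 (68.8%) of these held a GC box, against 32.7% of 32851 promoter windows of the same length. Each thalamic gene gave only the window nearest to its GENCODE start, while the 32851 include every window of a gene. Among thalamic genes that overlapped, the window of Lhx2 held 4 GC boxes, of Zic1 2, of Gbx2 1 and of Zic4 0. Nothing is therefore read from the share of 68.8%. The core letters of the TCF/LEF motif (CTTTGAT or CTTTGAA, and ATCAAAG or TTCAAAG on the other strand) occurred in 0 of the 16 windows and in 7.48% of all windows. Neither motif overlaps the other in letters, and these counts describe letters in a 250 base window.

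The FPKM of Tcf7l2 was 18.2 in WT-1063, 7.42 in DF-1018, 14.6 in DF-1037 and 17.6 in DF-1062. On the low side it was 1.26 in WT-1015, 1.04 in WT-1041, 1.96 in WT-1061 and 1.92 in DF-1059. The nearest values on either side of the division were thus 7.42 in DF-1018 and 1.96 in WT-1061. For Prkcd the high values were 70.4 in WT-1063, 49.8 in DF-1018, 82.1 in DF-1037 and 26.3 in DF-1062. The low values were 8.47 in WT-1015, 14.1 in WT-1041, 3.78 in WT-1061 and 6.01 in DF-1059. The nearest values were 26.3 in DF-1062 and 14.1 in WT-1041, so the order of the mice within a side was not shared by the genes: DF-1062 was second for Tcf7l2 and last of the 4 for Prkcd. The log2 difference, high minus low, fitted with edgeR on the counts was 3.20 (standard error 0.31) for Tcf7l2 and 2.81 (standard error 0.46) for Prkcd. With genotype as a covariate it was 3.22 and 3.06. In a bulk sample such as these, fewer cells of a type and less RNA per cell cannot be told apart.

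Across the transcriptome 18294 of 55032 genes passed the filter on low counts. Overlap was judged on the log2 CPM of each library (CPM, counts scaled to the library total with TMM factors). The 4 high values lay above all 4 low values for 949 genes (5.19% of those tested) and below them for 554 genes (3.03%), together 8.22%. A difference of at least 1 on the log2 scale together with no overlap was counted for 212 genes that were higher on the high side (1.16%) and for 57 that were lower (0.312%). With genotype as a covariate the counts were 216 (1.18%) and 50 (0.273%). Without DF-1018, which leaves fewer libraries that must not overlap, the counts were 371 and 337. Since the division was drawn from these libraries, nothing is read from these shares. The median log2 difference of all genes tested was 0.01.

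The 23 thalamic neuron genes all passed the filter, and 16 of them were higher without overlap, including Tcf7l2 and Prkcd, against 5.19% of all genes tested. The division was drawn by thalamic RNA, so nothing is read from this count for the other members either. The summed FPKM of the list was 473 in WT-1063, 261 in DF-1018, 452 in DF-1037 and 428 in DF-1062. It was 95.2 in WT-1015, 114 in WT-1041, 78.3 in WT-1061 and 106 in DF-1059. Prkcd was the most abundant member by mean FPKM. DF-1018 was the lowest of the high libraries, and on the mean log2 CPM of the list DF-1059, at 3.98, was above the other low libraries, which lay between 3.42 and 3.45.

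Slc17a6, the vesicular glutamate transporter of thalamic relay neurons, had an FPKM of 44.7 in WT-1063, 16.8 in DF-1018, 40.5 in DF-1037 and 56.0 in DF-1062. The low libraries had 1.82 in WT-1015, 1.58 in WT-1041, 2.37 in WT-1061 and 5.47 in DF-1059. The sides were separated by a log2 difference of 3.78 (standard error 0.48), and DF-1059 was the highest of the low libraries. Ntng1 encodes netrin-G1, an adhesion molecule on thalamocortical axons. Its FPKM was 20.5 in WT-1063, 11.97 in DF-1018, 22.5 in DF-1037 and 18.5 in DF-1062, against 2.00 in WT-1015, 2.02 in WT-1041, 1.79 in WT-1061 and 2.07 in DF-1059. The low libraries were closely alike for this gene, and the log2 difference was 3.20 with the smallest standard error among the 10 highest named genes, 0.18. Rgs16, which shortens signalling by G proteins, ranged from 9.57 to 28.1 FPKM in the high libraries and from 2.06 to 2.84 in the low ones. Ramp3, a partner of the calcitonin receptor family, ranged from 16.1 to 36.1 and from 2.72 to 6.05, Plekhg1, a guanine nucleotide exchange factor, from 11.5 to 28.8 and from 3.15 to 3.96, and Rora, a nuclear receptor of relay neurons, from 13.1 to 26.1 and from 5.23 to 6.45. Ramp3, Plekhg1 and Rora, and below Cacna1g, Calb2, Gbx2, Irx1, Kcnj13, Slc17a7, Gad1, Rgs9, Pde10a, Agt and Itih3, were added to the named genes once the values were known.

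The largest difference among genes above a mean log2 CPM of 1 was that of Shox2, a homeobox transcription factor of the thalamus and habenula. It had an FPKM of 26.3 in WT-1063, 8.86 in DF-1018, 21.9 in DF-1037 and 15.6 in DF-1062. The low libraries had 1 count in WT-1015, 0 in WT-1041, 9 in WT-1061 and 35 in DF-1059, against between 447 and 1406 counts in the high ones. Shox2 was thus at the limit of detection at this depth in WT-1015 and WT-1041 and present at a low level in DF-1059. Abhd12b, a gene of the alpha/beta hydrolase family, had between 2.75 and 7.92 FPKM on the high side and between 0.05 and 0.12 on the low side. Lhx9, a LIM homeobox factor of the thalamus, had between 0.59 and 4.00 and between 0.01 and 0.22. The others among the 10 highest were Epn3 (an epsin of endocytosis), Tnnt1 (a slow muscle troponin), Vipr2 (a receptor of the peptides VIP and PACAP), Rgs16, Ntng1, Slc17a6 and Tcf7l2, with log2 differences between 2.98 and 3.78.

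**Figure D1:**
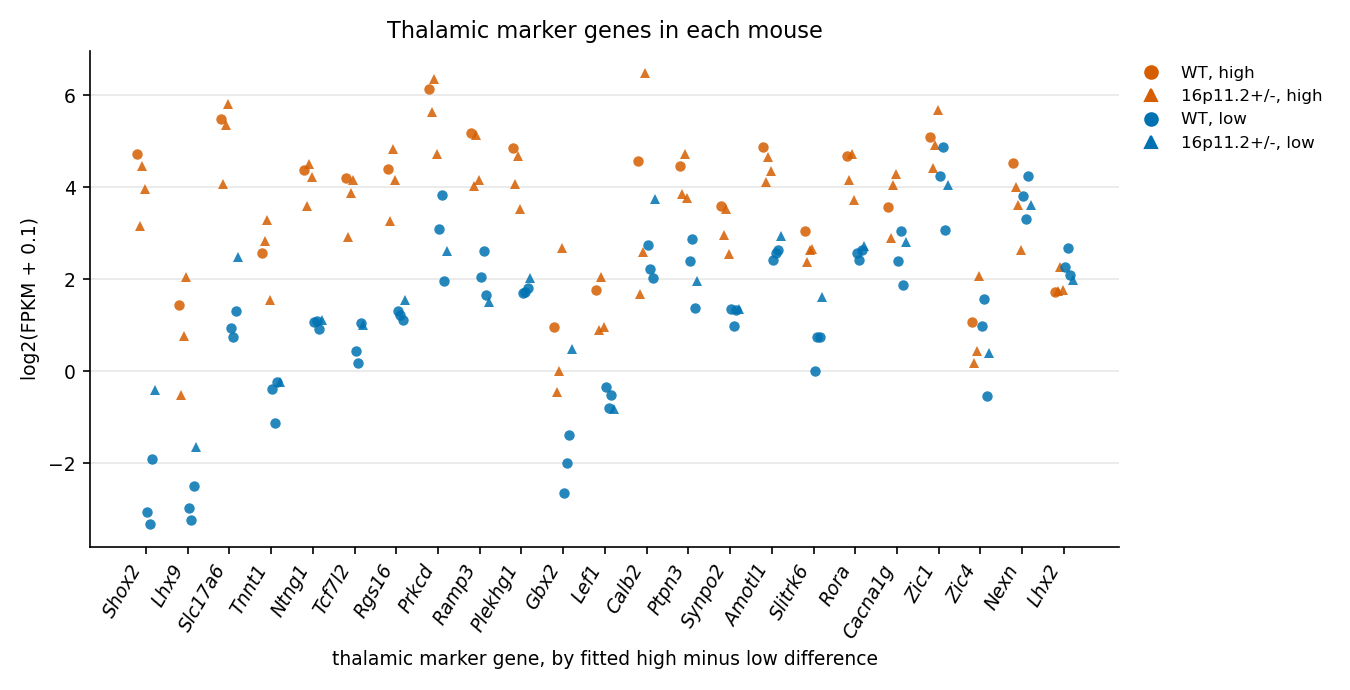
Each point is the log2(FPKM + 0.1) of 1 of the 23 thalamic genes in 1 mouse. Orange marks the 4 high and blue the 4 low libraries, and circles mark WT and triangles 16p11.2+/- mice. The genes run from Shox2, with a log2 difference of 6.37, to Lhx2, with -0.42.

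Members of the thalamic list that overlapped between the sides were Cacna1g, Calb2, Gbx2, Lhx2, Nexn, Zic1 and Zic4. They are named to account for the whole list. Cacna1g, the T-type calcium channel of relay neuron bursts, had an FPKM of 11.8 in WT-1063, 7.34 in DF-1018, 16.5 in DF-1037 and 19.4 in DF-1062. It had 5.14 in WT-1015, 8.13 in WT-1041, 3.58 in WT-1061 and 6.86 in DF-1059. The overlap came from DF-1018, which lay below WT-1041. Calb2 (calretinin) was 88.8 in DF-1062, 23.5 in WT-1063 and 13.4 in DF-1059, but 3.12 in DF-1018 and 5.91 in DF-1037. Gbx2, a homeobox factor of the developing thalamus, was 6.26 in DF-1062 and 1.30 in DF-1059 and between 0.63 and 1.85 in the other high libraries. The high libraries therefore differed among themselves in which thalamic genes were abundant, with Calb2 and Gbx2 highest in DF-1062 and Prkcd highest in DF-1037.

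How the high libraries varied was counted over the 212 higher genes. The highest value was in DF-1037 for 106 of them, in WT-1063 for 65, in DF-1062 for 39 and in DF-1018 for 2. The lowest of the 4 high values was in DF-1018 for 131 genes and in DF-1062 for 62. On the low side the highest value was in DF-1059 for 98 genes, in WT-1061 for 52, in WT-1041 for 40 and in WT-1015 for 22. Both 16p11.2+/- libraries nearest to the border, DF-1018 from above and DF-1059 from below, thus set the distance between the sides for the greatest number of genes.

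Among transcription factors of diencephalic identity, Shox2, Lhx9, Lef1, Irx2 and Irx1 did not overlap and Gbx2 did, and the other 8 of the 14 listed failed the filter on low counts. Shox2, Lhx9 and Irx2 passed it through the high libraries, since their low libraries had at most 35, 34 and 4 counts. No share or median over the factors that passed is therefore given. Irx2, an Iroquois factor, had between 0.24 and 1.22 FPKM on the high side and at most 0.07 on the low side. Lef1, a partner of beta-catenin like Tcf7l2, was 3.29 in WT-1063, 1.76 in DF-1018, 4.02 in DF-1037 and 1.85 in DF-1062. It was 0.69 in WT-1015, 0.48 in WT-1041, 0.60 in WT-1061 and 0.46 in DF-1059. The lowest high value was more than the highest low value by a wide margin for Lef1, with a log2 difference of 2.27 (standard error 0.30).

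Wnt pathway genes were examined because Tcf7l2 and Lef1 are effectors of this pathway. Of 59 listed, 51 passed the filter, 9 were higher without overlap and 1 was lower, against 5.19% and 3.03% of all genes tested, with a median log2 difference of 0.15. The 9 include Tcf7l2, which defined the division, and Wnt9b and Fzd10, which passed the filter through the high libraries, so nothing is read from this count. Besides the effectors Tcf7l2 and Lef1, the ligand Wnt9b was detected with between 66 and 140 counts in the high libraries and with 1 count in WT-1015, 2 in WT-1041 and 0 in WT-1061 and DF-1059. Fzd10, a Wnt receptor, had between 0.44 and 1.94 FPKM on the high and between 0.04 and 0.30 on the low side. Ctnnb1, which encodes beta-catenin and was the most abundant member, had between 67.9 and 86.6 FPKM on the high and between 58.6 and 65.0 on the low side, a log2 difference of 0.33 (standard error 0.08).

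Genes of the regions around the thalamus gave a mixed picture. No habenula gene was free of overlap (0 of 6 tested, of 8 listed, median log2 difference 1.52). Of all genes tested 8.22% were, so nothing is read from such counts in the short lists of this paragraph. The habenula median was 0.175 within WT and 0.76 within 16p11.2+/-. The mean log2 CPM of the habenula list was 3.35 in DF-1062 and between 0.96 and 1.24 in the other high libraries. It was between 0.77 and 1.10 in the low libraries, so the habenula median is not read as a difference of the whole high side. Tac2, the neurokinin B precursor, had an FPKM of 11.7 in DF-1062 and between 1.81 and 3.19 in the other high libraries, against 0.62 to 2.04 on the low side. No hypothalamic gene was free of overlap either (0 of 5 tested, of 12 listed, median log2 difference 0.18). Of 5 genes of the reticular thalamus and prethalamus, Pvalb was the only 1 that was higher without overlap. Pvalb encodes parvalbumin, a calcium buffer of fast-spiking neurons. Its FPKM was 75.9 in WT-1063, 42.0 in DF-1018, 102.6 in DF-1037 and 25.9 in DF-1062. On the low side it was 11.8 in WT-1015, 10.4 in WT-1041, 20.2 in WT-1061 and 19.3 in DF-1059. DF-1062 was thus the lowest high library for Pvalb as it was for Prkcd, with a log2 difference of 1.98 (standard error 0.43) between the sides. Of 15 calcium-binding protein genes tested, Pvalb alone was free of overlap, against 5.19% higher and 3.03% lower of all genes tested. The median was -0.20, and nothing is read from this count.

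Choroid plexus genes did not follow the division as a group. Of 13 listed, 9 passed the filter and 0 were free of overlap, against 8.22% of all genes tested. Their median log2 difference was 2.68. This median rested on WT-1063 and was -0.40 without it. The summed FPKM of the list was 4538 in WT-1063, 27.6 in DF-1018, 131 in DF-1037 and 23.9 in DF-1062. It was 491 in WT-1015, 8.81 in WT-1041, 18.2 in WT-1061 and 14.1 in DF-1059. Ttr was the most abundant member, and Kcnj13, a potassium channel of this epithelium, was at 0 counts in DF-1018 and WT-1041.

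Genes of medium spiny neurons had lower means on the high side, but no gene of the list separated the sides. All 23 passed the filter and 0 were free of overlap, against 5.19% higher and 3.03% lower of all genes tested. All 23 fitted differences were negative and their median was -0.82. The summed FPKM was 1613 in WT-1063, 2549 in DF-1018, 678 in DF-1037 and 520 in DF-1062. It was 2455 in WT-1015, 1804 in WT-1041, 2720 in WT-1061 and 2357 in DF-1059. DF-1018 lay within the range of the low libraries, and DF-1037 and DF-1062 lay far below all others. Penk had an FPKM of 266 in WT-1063, 456.2 in DF-1018, 111 in DF-1037 and 115 in DF-1062, against 279 to 453 on the low side. Drd1, the dopamine receptor of the direct pathway, was 47.9, 73.9, 18.3 and 14.6 in the same order of high mice, against 52.1 to 78.1. Adora2a, the adenosine receptor of the indirect pathway, ranged from 9.35 in DF-1062 to 60.1 in DF-1018, against 34.4 to 64.9. The median of the list was -1.33 without DF-1018, -0.58 without DF-1037 and -0.54 without DF-1062.

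Cortical neuron genes were low in 3 of the 4 high libraries. Of 12 tested, 11 had a negative difference and the median was -1.08. Nrgn was the only 1 lower without overlap, against 3.03% lower and 5.19% higher of all genes tested. Their summed FPKM was 149 in WT-1063, 204 in DF-1018, 392 in DF-1037 and 87.1 in DF-1062. It was 479 in WT-1015, 411 in WT-1041, 343 in WT-1061 and 346 in DF-1059. DF-1037 lay within the range of the low libraries, and without it the median was -2.46. It was -0.69 without DF-1062, -0.72 without WT-1063 and -0.74 without DF-1018. Nrgn (neurogranin), a calmodulin-binding protein of forebrain dendrites that medium spiny neurons also make, had an FPKM of 78.5 in WT-1063, 126.5 in DF-1018, 176 in DF-1037 and 36.0 in DF-1062. The low libraries had 304 in WT-1015, 222 in WT-1041, 229 in WT-1061 and 235 in DF-1059. Cux2, a factor of upper cortical layers, was the only member that was higher without overlap, between 4.16 and 10.2 FPKM on the high and between 1.73 and 3.77 on the low side.

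Telencephalic transcription factors showed a smaller difference. Of 12 tested, 11 differences were negative and the median was -0.66. Emx2, a homeobox factor of the dorsal telencephalon, was lower without overlap, as were 3.03% of all genes tested. It had between 1.29 and 1.88 FPKM on the high and between 2.15 and 3.70 on the low side. The log2 difference was -0.86 (standard error 0.22). The antisense transcript Dlx6os1 of the Dlx5 and Dlx6 locus was also lower without overlap, with a log2 difference of -0.81. The strand setting of the counting is not known, so reads of Dlx6os1 cannot be told apart from those of genes it overlaps.

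**Figure D2:**
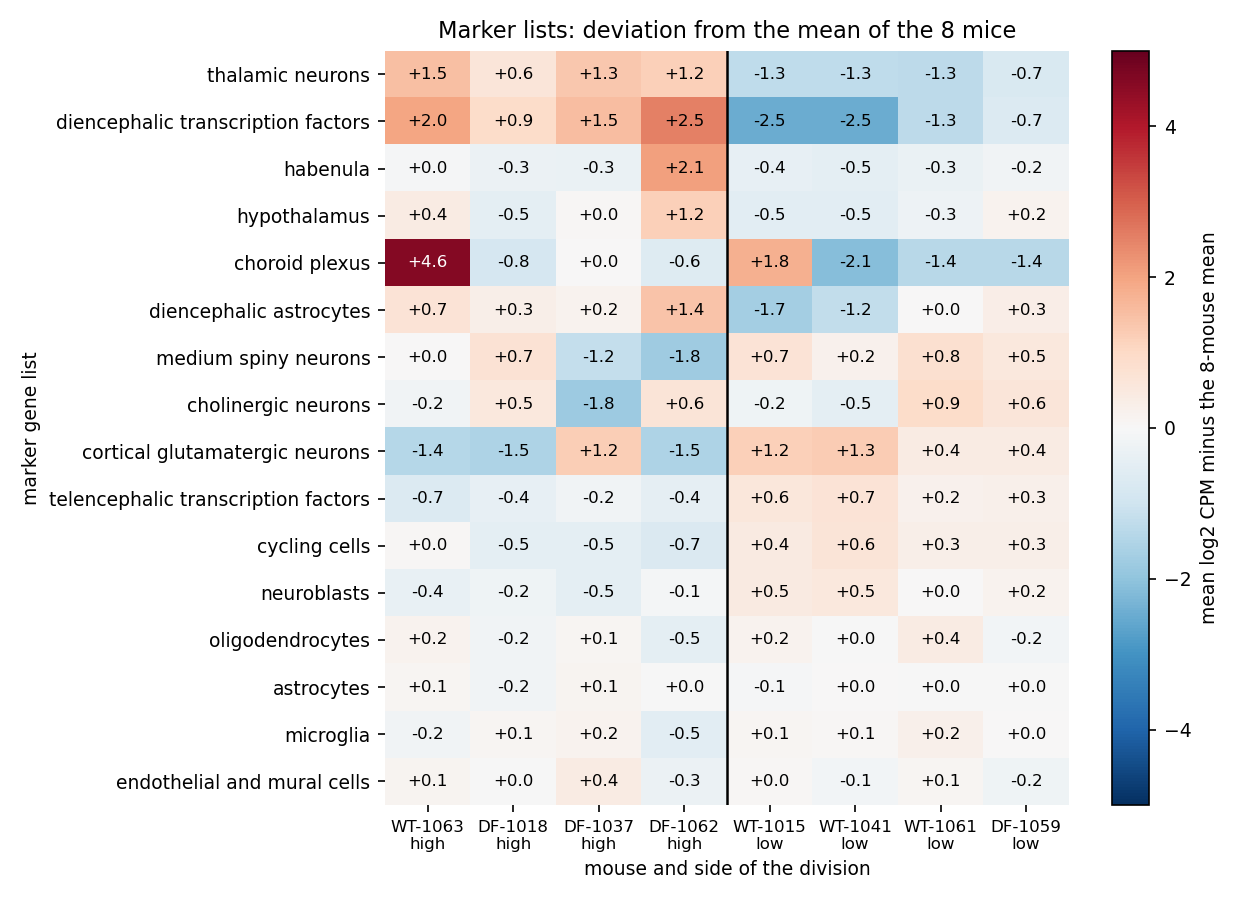
The mean log2 CPM of each of 16 marker lists (rows) in each mouse (columns), as the deviation from the mean of the 8 mice, with the value written in each cell and on the colour scale. The line separates the high libraries on the left from the low ones on the right. The thalamic row changes sign at the line, the choroid plexus row stands out in WT-1063, and the cortical row of DF-1037 resembles the low libraries.

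Among ion channels, 129 genes passed the filter, of which 17 (13.2%) were higher without overlap and 5 (3.88%) were lower, against 5.19% and 3.03% of all genes tested. Potassium channels held 10 of the higher and 3 of the lower ones among 75 tested, and their median log2 difference was 0.10 (0.20 without DF-1018). Kcnc2 encodes Kv3.2, a fast delayed rectifier of fast-spiking and thalamic neurons. Its FPKM was 39.2 in WT-1063, 21.1 in DF-1018, 41.2 in DF-1037 and 27.3 in DF-1062. On the low side it was 7.20 in WT-1015, 8.15 in WT-1041, 11.95 in WT-1061 and 11.0 in DF-1059, and the log2 difference was 1.73 (standard error 0.24). Kcng4, a silent subunit of the Kv6 group, ranged from 2.55 to 6.42 on the high side and from 0.83 to 1.39 on the low side. Kcnab3, a beta subunit, ranged from 9.19 to 19.9 and from 3.18 to 6.57. Kcne4, an auxiliary subunit, ranged from 0.87 to 1.69 and from 0.37 to 0.64. Kcnj10, the inward rectifier of glia and the most abundant potassium channel, ranged from 67.9 to 77.8 and from 41.4 to 70.6 and so overlapped.

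Pacemaker, calcium, sodium and TRP channels each held members free of overlap. Of the 4 HCN channels, Hcn4, the slowest to open and abundant in thalamus, was free of overlap. It had an FPKM of 4.41 in WT-1063, 2.71 in DF-1018, 3.81 in DF-1037 and 4.34 in DF-1062. The low libraries had 0.63 in WT-1015, 0.58 in WT-1041, 1.35 in WT-1061 and 1.64 in DF-1059, and the log2 difference was 1.84 (standard error 0.34). Hcn2, the most abundant HCN channel, ranged from 38.2 to 46.4 and from 27.2 to 37.9 FPKM, which do not overlap, but on TMM scaled log2 CPM the sides overlapped and Hcn2 was not counted. Of 24 voltage-gated calcium channel genes, Cacna2d4, Cacng2 and Cacng7 were higher and Cacng8 was lower without overlap, against 5.19% and 3.03% of all genes tested, the last with a log2 difference of -0.56. These genes were listed by family name, and Cacng2, Cacng7 and Cacng8 encode auxiliary subunits of AMPA receptors. They are also counted among the ion channels above. Of the 24 differences 18 were negative, with a median of -0.12 that was -0.19 with genotype as a covariate. Of 11 sodium channel genes, Scn1a was higher by 0.59 and Scn2a was lower by a log2 difference of -0.33. Scn1a encodes Nav1.1 of parvalbumin cells, and Scn2a encodes Nav1.2 of principal neurons. Of 15 TRP channels, Trpm6, a magnesium channel, and Trpm2 were higher. Trpm6 ranged from 0.38 to 1.25 FPKM on the high and from 0.08 to 0.16 on the low side, where it had between 8 and 17 counts.

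Transmitter receptors held 94 tested genes, of which 9 (9.57%) were higher without overlap and 2 (2.13%) were lower, against 5.19% and 3.03% of all genes tested. For glutamate, the AMPA receptor subunit Gria4 was higher and the kainate receptor subunit Grik3 was lower. Gria4 had an FPKM of 24.8 in WT-1063, 23.6 in DF-1018, 28.5 in DF-1037 and 26.9 in DF-1062, against 16.9 in WT-1015, 17.2 in WT-1041, 18.5 in WT-1061 and 19.6 in DF-1059. The difference of Gria4 was small, 0.50 on the log2 scale, but so was its spread, with a standard error of 0.08. Grik3 ranged from 11.7 to 18.3 on the high and from 17.2 to 19.5 on the low side. On FPKM the value of DF-1062 for Grik3 (18.3) lay above that of WT-1061 (17.2), and this gene was free of overlap only on log2 CPM. No GABA-A receptor gene of 15 tested was free of overlap, and of 4 glycine receptor genes Glra1 was higher, from 0.38 to 1.63 against 0.00 to 0.31. Glra1 had at most 12 counts in the low libraries and passed the filter through the high ones, where it had between 14 and 65, so its place among the 9 higher receptor genes was favoured by the filter.

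Acetylcholine and amine receptors followed the division in single members. The nicotinic subunits Chrna4 and Chrnb2, which together form the main high affinity receptor of the brain and are abundant in thalamus, were both higher without overlap, as 2 of 8 tested, against 5.19% of all genes. Chrna4 had an FPKM of 17.3 in WT-1063, 8.31 in DF-1018, 16.6 in DF-1037 and 9.75 in DF-1062. The low libraries had 4.63 in WT-1015, 4.93 in WT-1041, 3.88 in WT-1061 and 4.09 in DF-1059, and the log2 difference was 1.55 (standard error 0.24). Chrnb2 ranged from 8.45 to 11.7 on the high side and from 5.82 to 7.53 on the low side. Of 9 adrenergic receptors, Adra1b (3.53 to 8.03 against 1.60 to 2.55) and Adra2b were higher. Of 11 serotonin receptors, Htr7 was higher by a log2 difference of 0.97 (with overlap on FPKM) and Htr1f was lower by one of -0.98, and of 7 adenosine and histamine receptors Hrh2 was higher. No muscarinic, dopamine, opioid or cannabinoid receptor gene was free of overlap. Cnr1, the cannabinoid receptor of medium spiny and other GABAergic terminals, came near to it, with 20.8 to 56.4 on the high and 55.5 to 85.3 on the low side.

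**Figure D3:**
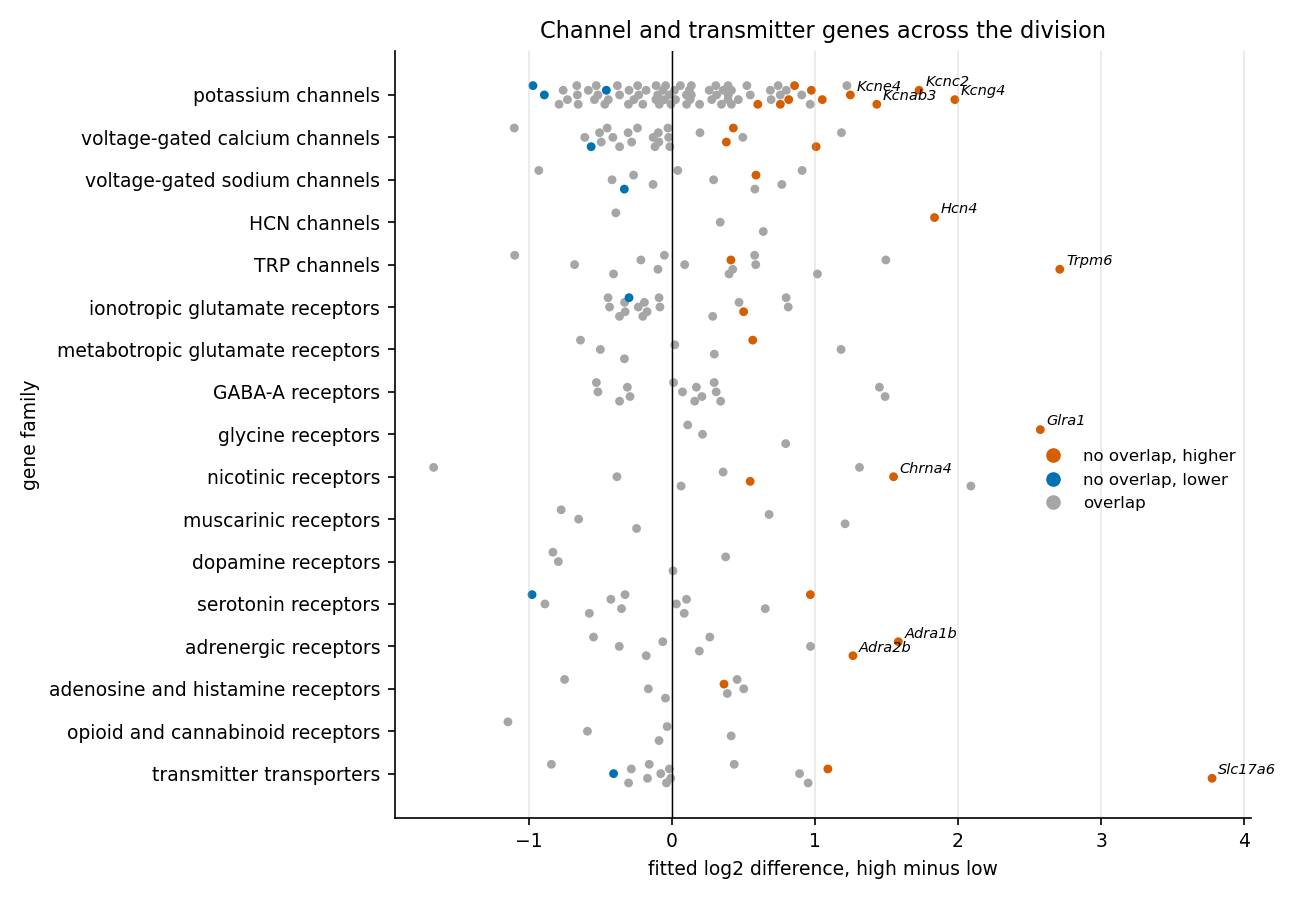
Each point is the fitted log2 difference, high minus low, of 1 gene of the family named on the vertical axis. Orange marks genes whose 4 high values lay above all 4 low values, blue the reverse and grey genes that overlapped, and names are given from a difference of 1.2 upwards. Slc17a6 is farthest to the right, and most genes of each family are grey.

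Among 15 transmitter transporters, Slc17a6 and Slc6a11 were higher and Slc1a2 was lower without overlap, against 5.19% and 3.03% of all genes tested. Of the 15 differences 10 were negative, and the median was -0.04. Slc6a11, the GABA transporter GAT3 of astrocytes, had an FPKM of 68.6 in WT-1063, 54.4 in DF-1018, 63.7 in DF-1037 and 123 in DF-1062. The low libraries had 19.2 in WT-1015, 24.8 in WT-1041, 42.4 in WT-1061 and 55.6 in DF-1059. The FPKM of DF-1018 thus lay just under that of DF-1059, and the values were free of overlap only on TMM scaled log2 CPM. Sparc, a secreted matrix protein, was close in the same way, with 91.8 in both DF-1018 and DF-1059. Slc6a11 and Sparc were from a list of 4 genes of diencephalic astrocytes, all with positive differences and a median of 1.05, of which Agt and Itih3 overlapped. Of 10 general astrocyte genes 7 differences were positive and 3 negative, with a median of 0.13. Gfap and Slc1a2 of these were lower without overlap and 0 were higher, Gfap only on log2 CPM and not on FPKM, and Slc1a2, the main astrocyte glutamate transporter, had between 141 and 225 FPKM on the high and between 243 and 256 on the low side. Slc17a7, the glutamate transporter of cortical neurons, overlapped, at 106 in DF-1037 and between 7.83 and 20.2 in the other high libraries, against 25.3 to 67.9. Gad1, which makes GABA, ranged from 89.4 to 105 and from 76.7 to 95.1. No neuropeptide gene of 21 tested and no transmitter synthesis gene of 10 was free of overlap, Sst, the most abundant interneuron peptide, ranging from 102 to 155 and from 98.8 to 141.

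Signalling regulators included 4 of 17 RGS genes that were higher without overlap (Rgs16, Rgs3, Rgs6 and Rgs7) and, of 19 phosphodiesterases, Pde4d higher and Pde3b and Pde1c lower, against 5.19% higher and 3.03% lower of all genes tested. Pde3b was free of overlap only on log2 CPM and not on FPKM. Rgs9, the striatal RGS protein, and Pde10a, the striatal phosphodiesterase, belong to the medium spiny neuron list and overlapped. Of 19 classical cadherins and of 3 cerebellins tested, 0 were free of overlap. Prox1 was the only hippocampal gene of 8 and Kcng4 the only pallidal gene of 5 that was higher. Of the 3 midbrain dopamine genes and the 1 cerebellar gene tested, 0 were free of overlap.

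The lower side of the division was led by a different set of genes. Among genes without overlap and with a mean log2 CPM of at least 1, the 10 with the largest negative differences were Thbs4, Ighm, Igfbpl1, Ctgf, Top2a, Impg1, Tmprss6, Mki67, Rrm2 and Nrgn. Thbs4, a secreted thrombospondin of astrocytes and of cells on the migratory route to the olfactory bulb, had an FPKM of 3.82 in WT-1063, 1.52 in DF-1018, 2.50 in DF-1037 and 0.44 in DF-1062. On the low side it was 15.7 in WT-1015, 12.2 in WT-1041, 8.59 in WT-1061 and 5.55 in DF-1059, and the log2 difference was -2.36 (standard error 0.56). Igfbpl1, a gene of migrating neuroblasts, ranged from 0.34 to 0.86 on the high and from 0.92 to 2.15 on the low side. Ighm, the immunoglobulin heavy chain mu, ranged from 1.94 to 8.91 and from 9.82 to 16.6, and Ctgf, a matricellular protein of deep cortical layers, from 1.86 to 5.17 and from 6.06 to 12.3.

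Mki67, Top2a and Rrm2 are genes of dividing cells, which in the adult forebrain lie mainly next to the lateral ventricle. A list of cycling cell genes and 1 of neuroblast genes were therefore added after these values had been seen. Of 13 cycling cell genes tested, 7 were lower without overlap, against 3.03% of all genes tested, with a median log2 difference of -0.78. The 7 include Mki67, Top2a and Rrm2, which prompted the list, so nothing is read from this count. Top2a had an FPKM of 0.61 in WT-1063, 0.50 in DF-1018, 0.31 in DF-1037 and 0.21 in DF-1062, against 1.13 in WT-1015, 1.33 in WT-1041, 1.08 in WT-1061 and 0.88 in DF-1059. Pcna, the most abundant member, overlapped. Of 12 neuroblast genes, 4 were lower (Igfbpl1, Ccnd2, Cdca7 and Dlx6os1) and 1, Tubb3, was higher, against 3.03% and 5.19% of all genes tested, with a median of -0.56. Igfbpl1 was among the lower genes seen before this list was added, so nothing is read from this count either. Over the 57 lower genes the lowest value was in DF-1062 for 31.

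Most lists of other cell types had small median differences. Of all genes tested 8.22% were free of overlap, so nothing is read from the low counts in the short lists below. Of 12 oligodendrocyte genes 0 were free of overlap, with a median log2 difference of -0.21 that was -0.07 with genotype as a covariate and -0.10 without WT-1061 or without DF-1062. Mbp, which encodes myelin basic protein, had an FPKM of 514 in WT-1063, 409 in DF-1018, 457 in DF-1037 and 313 in DF-1062. On the low side it was 521 in WT-1015, 538 in WT-1041, 588 in WT-1061 and 431 in DF-1059. The lowest value of Mbp on each side thus came from a 16p11.2+/- mouse. Olig2, a factor of the whole oligodendrocyte lineage, ranged from 9.96 to 12.1 and from 9.64 to 12.7, and Myrf, of mature oligodendrocytes, from 12.8 to 16.2 and from 14.4 to 17.1, with a log2 difference of -0.11. Of the 9 microglial and 10 endothelial and mural genes 0 were free of overlap, with medians of -0.20 and 0.17. Of 6 meningeal fibroblast genes 0 were free of overlap, with a median of 0.58 that was 1.42 within WT and -0.17 within 16p11.2+/-. Their mean log2 CPM was 2.81 in WT-1063 and between 1.40 and 1.94 in the other 7 libraries. No gene was free of overlap among 8 ependymal genes (median 0.28), 5 red blood cell genes (0.03) and 5 cholinergic neuron genes (-0.28). Against 5.19% higher and 3.03% lower of all genes tested, Lhfpl3 was higher and Vcan lower of 8 oligodendrocyte precursor genes. Of 9 interneuron genes Pvalb was higher and Pthlh lower. Pdgfra, the growth factor receptor of these precursors, had a log2 difference of -0.01 and Cspg4 one of -0.10. Of 11 immediate early genes Egr4 was lower, with a median of -0.52 that was -0.17 with genotype as a covariate.

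The sides were also compared within each genotype. The division was drawn from the levels of Tcf7l2 and Prkcd in all 8 libraries, so the direction of these genes within each genotype was fixed by that choice, and the values describe its size and give no support to it. Among WT mice WT-1063 was set against the other 3, and among 16p11.2+/- mice the 3 high libraries were set against DF-1059. The median difference in log2 CPM of the 23 thalamic genes was 2.58 within WT and 2.08 within 16p11.2+/-. For Tcf7l2 the difference was 3.71 and 2.67, and for Prkcd 3.18 and 2.96. Medium spiny neuron genes had medians of -0.49 and -1.38, cortical genes of -2.32 and -1.11, and choroid plexus genes of 5.04 and 0.75. A difference of at least 1 was found for 856 genes within WT and for 347 within 16p11.2+/-, of which 178 were shared (20.8% and 51.3% of these lists). In the other direction it was 510 and 435, with 93 shared (18.2% and 21.4%). Across the 18294 genes, which are not independent replicates, Pearson's r of both differences was 0.39 and Spearman's coefficient 0.37. Each of these differences rests on 1 library on 1 of its sides.

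**Figure D4:**
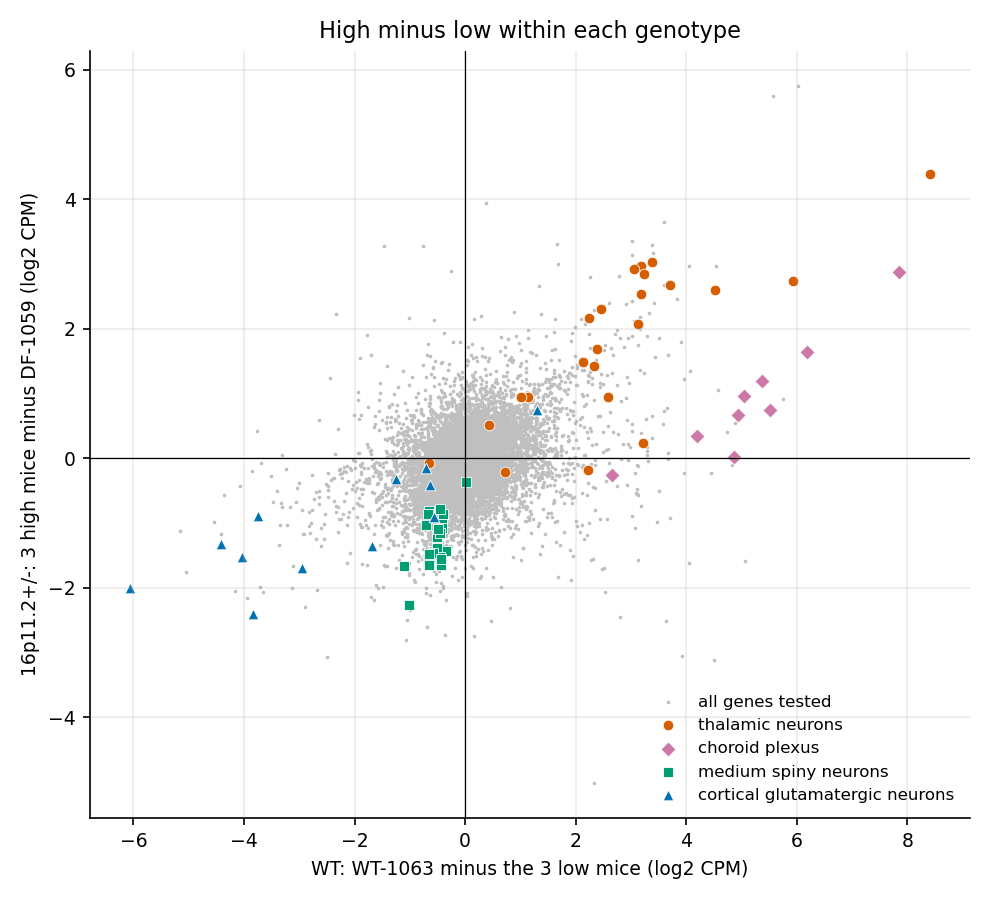
Each point is 1 gene, with its difference in log2 CPM between WT-1063 and the 3 low WT mice on the horizontal axis and between the 3 high 16p11.2+/- mice and DF-1059 on the vertical axis. Grey points are all genes tested and coloured points are members of 4 lists. Most thalamic genes lie at the upper right, with medians of 2.58 and 2.08, and choroid plexus genes lie far to the right and near the vertical zero, with medians of 5.04 and 0.75.

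Genotype was not used to draw the division, so the comparison of 16p11.2+/- with WT mice was tested with the side as a covariate (edgeR quasi-likelihood test, Benjamini-Hochberg adjustment over 18294 genes). At an adjusted p under 0.05, 6 genes were lower (0.0328% of those tested) and 2 were higher (0.0109%) in 16p11.2+/- striatum. Without the covariate the counts were 17 (0.0929%) and 3 (0.0164%), and the 8 genes called with it were all among these 20. The lower genes were Cd2bp2, Sez6l2, Taok2, Aldoa, Ppp4c and Maz, all of the deleted segment. Taok2, a kinase, had an FPKM of 8.91 in DF-1018, 8.99 in DF-1037, 9.82 in DF-1062 and 9.04 in DF-1059. In WT mice it was 16.99 in WT-1063, 17.1 in WT-1015, 18.2 in WT-1041 and 18.8 in WT-1061. Each genotype was alike on both sides of the division, and the log2 fold change with the side was -0.95 (standard error 0.08, edgeR adjusted p = 0.0065). The 25 tested genes of the segment had a median log2 fold change of -0.97 without and -0.96 with the side, and their median high minus low difference was -0.52 without and -0.04 with genotype as a covariate.

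Of the 2 higher genes, 1 was Tyr, the enzyme of pigment synthesis, and the other was a transcript with no gene name in the deposited table. Tyr had between 1.35 and 1.57 FPKM in all 4 16p11.2+/- mice and between 0.03 and 0.06 in WT mice (log2 fold change 5.18, standard error 0.28, edgeR adjusted p = 0.00117). The separation of these values ran by genotype and not by side. The unadjusted p was under 0.05 for 614 genes with and for 790 without the covariate. The median standard error of the log2 fold change was 0.20 with the side and 0.18 without it. With DESeq2 in place of edgeR, 23 genes were lower and 4 higher. Without WT-1015, WT-1041, WT-1061, WT-1063 or DF-1059, 0 genes were lower in the edgeR test, with 331, 442, 427, 178 and 643 lower genes at an unadjusted p under 0.05 and 18, 35, 30, 11 and 124 called lower by DESeq2, in this order.

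The side was drawn from the level of thalamic genes, so a smaller genotype difference of these genes with the side in the fit was fixed by that choice and is no result. Their median log2 fold change, 16p11.2+/- to WT, was 0.72 with genotype alone and -0.09 with the side, and none of the 23 was called in either fit. For Slc17a6 it was 1.201 (standard error 1.16) and 0.55 (standard error 0.44). For Prkcd it was 0.76 (standard error 0.96) and -0.48 (standard error 0.51). Medians of the medium spiny neuron genes were -0.53 and -0.21, and those of the oligodendrocyte genes were -0.35 and -0.36. The log2 fold change of Mag was -0.33 and -0.32, of Mog -0.47 in both fits, of Mbp -0.44 and -0.38 and of Cnp -0.27 and -0.22. With the side, the adjusted p of each of these 4 myelin genes was 1 (edgeR) and the unadjusted p lay between 0.0263 for Mog and 0.164 for Cnp. It was 0.056 for Mag and 0.069 for Mbp. With genotype alone the unadjusted p (edgeR) was 0.0212 for Mag, 0.0106 for Mog, 0.0202 for Mbp and 0.0627 for Cnp. The adjusted p was then 0.859 for each. Cers2, a ceramide synthase, had log2 fold changes of -0.27 and -0.30, with an unadjusted p (edgeR) of 0.011 and 0.0161. Like the 4 myelin genes, Cers2 was called in neither fit at an adjusted p under 0.05. Olig2 had -0.01 and -0.02, and Myrf -0.20 and -0.19. Pdgfra, Cspg4 and Gapdh had 0.05, 0.04 and 0.27 with genotype alone and 0.07, 0.12 and 0.33 with the side.

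**Figure D5:**
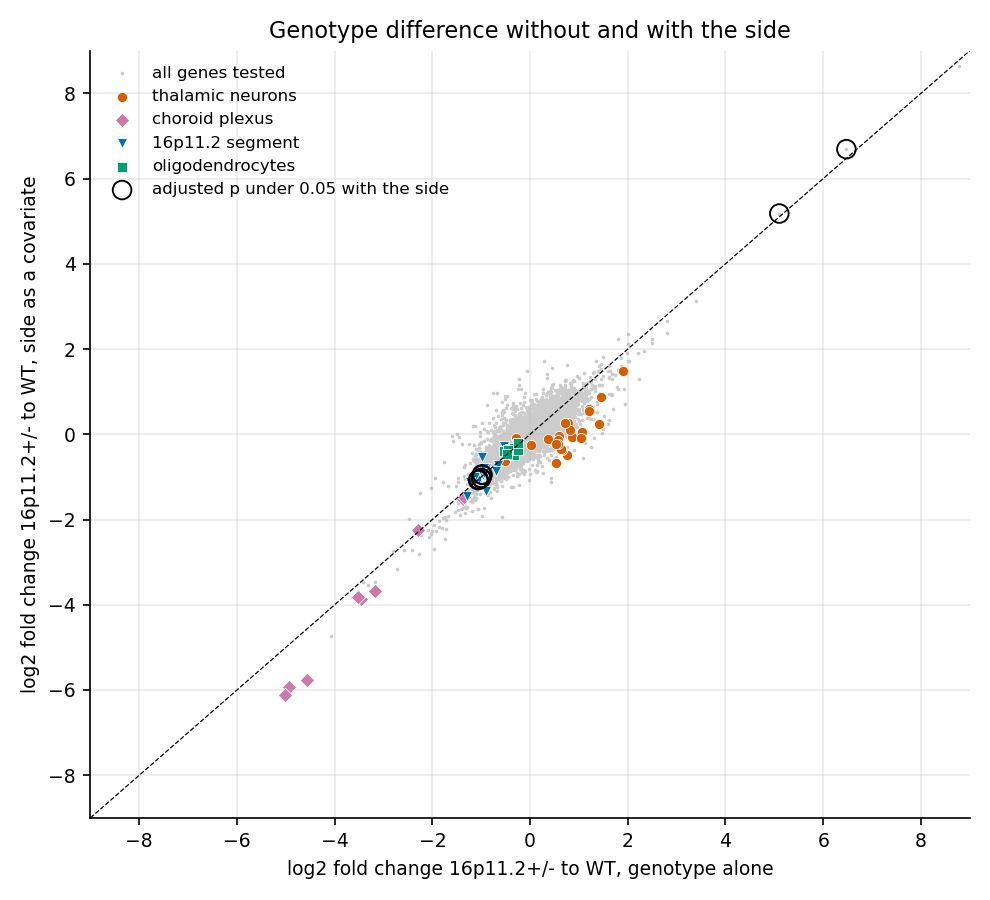
Each point is the log2 fold change, 16p11.2+/- to WT, of 1 gene with genotype alone (horizontal axis) and with the side as a covariate (vertical axis), and the dashed line marks equal values. Circles mark the 8 genes with an adjusted p under 0.05 in the fit with the side. Most thalamic genes lie below the line, with medians of 0.72 and -0.09, while genes of the deleted segment stay near -1 in both fits.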

How the data were processed

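Striatal RNA of 4 WT and 4 16p11.2+/- mice was compared between 4 high and 4 low libraries. By the study's methods, the authors filtered the reads, mapped them with Hisat2 2.1.0 and deposited the raw counts of Htseq-count for 55032 genes. The submitters' processing notes name Bowtie 0.12.2 instead and the builds mm8 and mm9, with no role. The strand setting is not given in the sources used here, and neither is the annotation of the counting. The authors also deposited FPKM values, which equal the count divided by a gene length and the total count. The lengths implied matched GENCODE M21 (GRCm38) within 1% for 96.2% of 17562 genes. Deposited fold changes and p-values of the authors' own DESeq2 comparison were not used.

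Counts were fitted with edgeR 4.0.16 in R 4.3.3 (TMM, filterByExpr with a minimum count of 10, quasi-likelihood fit), which kept 18294 genes. Log2 CPM used a prior count of 2. High and low libraries were described by fitted log2 differences and overlap, and genotype was tested with the side as a covariate at an adjusted p of 0.05. Alternatives were DESeq2 1.42.0, limma-voom (limma 3.58.1), RLE factors, library totals, other filters, log2 FPKM with pseudocounts of 1 and 0.1, thresholds of 0.5 and 2, other covariates and fits on 7 of the 8 mice. Simulated counts with known changes were used to test the code. Counts of same-genotype libraries had a chi-square of 8.07 to 56 for each degree of freedom, more than sampling noise gives, so each was 1 sample.

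The members and lists were chosen with earlier results of these data known. Genes were named by a rule: Tcf7l2 and Prkcd, the 10 largest differences in each direction among genes of a mean log2 CPM of at least 1 without overlap, in each list up to 4 members without overlap and the most abundant member, the study's myelin and control genes, and genes called by genotype. Other names are said to have been chosen after their values were seen. Some genes of these lists are not reported here.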

Additional observations from a re-analysis of the deposited data

Results flagged for a closer look

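Of 114 groups of 4 libraries, formed on each side by the gene lists and by Tcf7l2 and Prkcd alone, 8 had a library whose gap to its nearest neighbour took more than 0.83 of the range of the group, where chance gives about 1 in 20. All values below are mean log2 CPM. DF-1059 was far above the other low libraries in thalamic neuron genes (3.98 against 3.42 to 3.45, gap share 0.962), in meningeal fibroblast genes (1.81 against 1.40 to 1.44, 0.899) and in ionotropic glutamate receptor genes (6.82 against 6.69 to 6.71, 0.869). It was far below them in genes of the 16p11.2 segment (3.64 against 4.73 to 4.81, 0.936), where it was the only 16p11.2+/- mouse among the 4.

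DF-1062 was far above the other high libraries in habenula genes (3.35 against 0.96 to 1.24, gap share 0.883) and far below them in adenosine and histamine receptor genes (3.39 against 3.96 to 4.07, 0.837). DF-1037 was far above the other high libraries in cortical neuron genes (5.86 against 3.08 to 3.19, 0.958), and WT-1063 in choroid plexus genes (7.48 against 2.04 to 2.91, 0.840).

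For 2 lists the mean difference, high minus low, had one sign in WT and the other in 16p11.2+/- mice, with every library on its side. Genes of the 16p11.2 segment had -0.21 within WT and 0.12 within 16p11.2+/-. Sodium channel genes had 0.080 within WT and -0.19 within 16p11.2+/-. These differences between the genotypes were not tested.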

How the results depend on the processing

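The count of genes higher on the high side without overlap (212) and of those lower (57) moved with the filter and the size threshold. Without a filter they were 387 and 210, at a threshold of 0.5 they were 470 and 225, at a threshold of 2 they were 60 and 8, and on log2(FPKM + 1) they were 87 and 8. With at least 10 counts in every library 27 genes were lower. A threshold of 0.5 or 2 changes the count by its own construction, and a pseudocount of 1 shrinks differences of low genes. When 1 mouse was left out, which leaves 7 libraries and so fewer that must not overlap, the counts ranged from 217 to 371 higher and from 67 to 337 lower. They were 371 and 337 without DF-1018 and 326 and 126 without DF-1059, and the lower count was 97 without WT-1061, 107 without WT-1063 and 209 without DF-1037.

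The median log2 difference of thalamic genes was 1.60 on log2(FPKM + 1) and between 2.07 and 2.53 when single mice were left out. That of choroid plexus genes turned to -0.40 without WT-1063 and reached 4.17 without WT-1015, and was 0.95 on log2(FPKM + 1). With single mice left out, that of cortical genes ranged from -2.46 (without DF-1037) to -0.69, of medium spiny neuron genes from -1.33 to -0.54, of oligodendrocyte genes from -0.30 to -0.10 and of potassium channels from 0.063 to 0.20 (without DF-1018). Outside these ranges lay the thalamic median with at least 10 counts in every library (2.01) and on log2(FPKM + 0.1) (2.04), the cortical median with at least 10 counts in every library (-0.58), the oligodendrocyte median with genotype as a covariate (-0.07) and the potassium channel median on log2(FPKM + 1) (0.056). Of the values of named genes free of overlap under these alternatives, 76 moved by more than the spread and 1290 did not. No sign changed among them. Among named genes that overlapped, which are not in these counts, some signs changed with genotype as a covariate. Examples are Tyr (1.47 to -0.15) and Aldoa (-0.45 to 0.06).

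In the genotype test with the side (6 lower, 2 higher by edgeR), 17 genes were lower with no covariate, 12 with the mean of Tcf7l2 and Prkcd as a continuous covariate, 23 lower and 4 higher with DESeq2, 14 lower without a filter, and 0 higher with at least 10 counts in every library, where 133 were higher at an unadjusted p under 0.05. With each mouse left out the counts ranged from 0 to 8 lower and from 0 to 2 higher, and the count of higher genes was 1 without WT-1015, WT-1061 or WT-1063 and 0 without DF-1059 (195 at an unadjusted p under 0.05, 7 by DESeq2). Leaving out WT-1063 or DF-1059 leaves 1 side with 1 genotype. The causes were not tested. No paired analysis was possible because WT and 16p11.2+/- mice have no replicate number in common. Depth limits the genes of low count, since the filter kept 18294 of 55032 genes.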
